A study of Mus musculus with 11 samples.

Results

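The core circadian clock was followed through 10 genes, Clock, Arntl, Per1, Per2, Per3, Cry1, Cry2, Nr1d1, Nr1d2 and Dbp, in messenger RNA of cells labelled as mouse cavernous endothelial cells. The 10 were chosen by name, as the rows carrying these symbols in each of 11 RNA-seq libraries. They are 10 of the 23238 genes measured, and all 10 passed a filter on low values that kept 18248 genes. No member stood apart between the treatments beyond the spread of the libraries. Over the members a median of 59.3% of the variation ran between sets of libraries that the deposited files number, against 49.8% over all genes tested. Within these sets Nr1d1 stood in reverse order to Arntl, with an adjusted permutation p of 0.0648 and with Arntl differences in 2 sets that lie within counting error. Over the pooled libraries the r of this pair, 1 of 14 tested, was -0.32 (adjusted permutation p = 0.592), and it was 0.33 without set 2.

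The cells, grown from corpus cavernosum tissue in serum-containing medium 199, had been kept for 5 days in 1 of 3 conditions. High glucose with Hsp70, a heat shock chaperone, had 4 libraries, high glucose alone had 4, and normal glucose had 3. The labels do not name the glucose concentrations, the form of Hsp70, the strain of the mice, the time of day at harvest or any synchronization of the cultures. The file names number 4 sets. Set 2 holds 1 Hsp70 and 1 high glucose library, and sets 3, 4 and 5 hold 1 library of each group. What a set is (a culture, an animal, a run) is not stated. Nothing says that the libraries of a group came from separate cultures or animals, so p-values measure the spread between these libraries, which may be technical.

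The mammalian clock is a transcriptional loop that runs in nearly every cell, endothelial cells included. CLOCK and BMAL1, the product of Arntl, bind E-boxes and switch on the Per and Cry genes, whose proteins return to shut CLOCK and BMAL1 down. In a second loop they switch on Nr1d1 and Nr1d2, nuclear receptors (REV-ERBs) that repress Arntl through ROR response elements, and they drive Dbp, a PAR bZIP factor that acts through D-boxes. In a rhythmic tissue Arntl therefore peaks when Nr1d1, Dbp and the Per genes are near their trough. In cultures that have not been synchronized the phases of single cells drift apart.

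Letters of these elements were looked for in RefSeq promoter windows (assembly GRCm38.p6), which run from 250 bases before to 50 bases after a transcript start. Of the 10 members 9 had a window, 13 windows in all, and 6 members held at least 1 match on either strand. How many of all genes hold a match to any of these elements was not counted, so the 6 has no background. The E-box CACGTG, present in 7.15% of all 32851 windows, stood in Per1 and Cry1. Its variant CACGTT, in 4.68% of all windows, stood in Cry1, Cry2 and Nr1d1. The D-box TTANGTAA, in 2.32% of all windows, occurred at 2 places in Per3, and the ROR element core TAGGTCA, in 2.61%, occurred in Arntl. No match overlapped another. The windows of Clock, Nr1d2 and Dbp held none of the 4 motifs, which says only that these letters are not in those windows. The letters of these motifs are those of the elements through which the loop is known to run. Stretches around matches in Per1, Cry1, Nr1d1, Per3 and Arntl are given, with the motif in capitals, and that of Cry2 is not.
Per1: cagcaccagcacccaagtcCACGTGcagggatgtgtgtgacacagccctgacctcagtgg
Cry1: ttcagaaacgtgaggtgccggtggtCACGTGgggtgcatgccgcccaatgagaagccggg
Nr1d1: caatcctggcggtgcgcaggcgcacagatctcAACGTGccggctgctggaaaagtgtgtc
Per3: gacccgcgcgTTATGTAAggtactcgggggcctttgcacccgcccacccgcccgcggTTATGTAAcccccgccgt
Arntl: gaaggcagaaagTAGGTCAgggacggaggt

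The Per1 stretch is chr11:69098764-69098823 on the plus strand, with its E-box 166 to 161 bases before the start. The Cry1 stretch is chr10:85185080-85185139 on the minus strand, with the E-box 60 to 55 bases before the start and the variant, left in lower case as aacgtg, 79 to 74 bases before it. In Nr1d1, chr11:98775378-98775437 on the minus strand, the variant was read from the opposite strand and lay 28 to 23 bases before the start. The Per3 stretch, chr4:151044806-151044880 on the minus strand, holds D-boxes that begin 205 and 158 bases before the start. In Arntl, chr7:113207529-113207558 on the plus strand, the ROR element core begins 30 bases after the start. The matches are letters, and binding was not measured.

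The values are log2(normalized count + 1), and per library the normalized counts added up to 24.8 to 27.8 M. The cell label was checked against marker lists. Fibroblast markers (7 of 7 found) summed to 17.17 to 18.48 on the log2 scale in every library, and endothelial markers (11 of 11 found) summed to 10.77 to 10.91 in set 3 and 7.65 to 8.69 in the other sets. Outside set 3 the endothelial genes Tie1, Cldn5, Robo4 and Nos3 were below a normalized count of 1 in at least 1 library (Nos3 in 1 library only). Cdh5, the endothelial cadherin, was at 50.2 to 305 there, against 514 to 732 in set 3, and Tek, an endothelial receptor kinase, at 33 to 86.1, against 36.2 to 58.5. Macrophage and leukocyte markers (6 of 6 found) summed to 12.09 to 12.31 in set 3 and 8.47 to 9.47 elsewhere. Fibroblast transcripts thus exceeded endothelial ones in every library, which goes against the cell label, and the libraries are called by their treatment here. In such bulk samples fewer cells of a type and less RNA per cell cannot be told apart.

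All 10 members were expressed well above the filter. Between libraries of the same gene the log2 values are given in the order of sets 2, 3, 4 and 5 for the Hsp70 and high glucose libraries, and of sets 3, 4 and 5 for normal glucose.

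Clock, the DNA-binding partner of BMAL1, stood at 10.97, 11.54, 9.86 and 11.79 in the Hsp70 libraries, at 11.03, 11.07, 11.31 and 11.09 in high glucose, and at 10.09, 11.20 and 11.55 in normal glucose. Its spread over the 11 libraries was the widest of the 10 members, with an SD of 0.591 and a 3.82-fold range of counts. The Hsp70 library of set 4 and the normal glucose library of set 3 were low, at 9.86 and 10.09, while the 4 high glucose libraries lay close together inside the range of both other groups. Arntl, which encodes the activator BMAL1, stood at 9.29, 8.80, 8.41 and 8.38 in the Hsp70 libraries, at 8.83, 8.83, 8.65 and 8.42 in high glucose, and at 8.94, 8.15 and 8.40 in normal glucose. Its highest value was the Hsp70 library of set 2, and the 3 groups overlapped. In each group the libraries of sets 4 and 5 were lower than those of sets 2 and 3.

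Per1, an early-responding repressor of the loop, stood at 8.22, 8.71, 9.14 and 8.55 in the Hsp70 libraries, at 8.33, 8.64, 8.58 and 8.67 in high glucose, and at 8.98, 8.69 and 8.21 in normal glucose. Both ends of its range lay in 2 different groups, the highest in the Hsp70 library of set 4 and the lowest in the normal glucose library of set 5. Per2, the repressor partner of the cryptochromes, stood at 6.99, 7.93, 7.23 and 7.49 in the Hsp70 libraries, at 7.07, 7.99, 7.76 and 7.80 in high glucose, and at 7.41, 7.35 and 7.49 in normal glucose. The high glucose library was the highest of its set in all 4 sets, and both set 2 libraries were lower than all 3 of normal glucose. In sets 2 and 3 the lead of high glucose over the Hsp70 library was smaller than the Per2 counting error of 0.108. How many of all genes have high glucose highest in every set was not counted, so the order has no background. Per3, the PER paralog that is dispensable for the loop in mice, stood at 7.74, 8.55, 8.90 and 9.08 in the Hsp70 libraries, at 7.93, 8.26, 8.78 and 9.02 in high glucose, and at 8.33, 8.53 and 8.95 in normal glucose. Here the libraries stood in the order of the set numbers within every group, with set 5 highest.

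Cry1, a strong repressor of CLOCK and BMAL1, was the lowest-counted member, at 6.79, 6.77, 6.40 and 6.77 in the Hsp70 libraries, at 7.38, 6.65, 6.74 and 6.52 in high glucose, and at 6.80, 6.59 and 6.60 in normal glucose. The high glucose library of set 2 stood alone at the top and the Hsp70 library of set 4 at the bottom. Cry2, the other cryptochrome, stood at 9.40, 9.90, 9.66 and 9.68 in the Hsp70 libraries, at 9.44, 9.69, 9.61 and 9.56 in high glucose, and at 9.81, 9.56 and 9.49 in normal glucose. Its SD of 0.152 and 1.41-fold range were the narrowest of the 10 members.

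Nr1d1, the REV-ERB alpha repressor of Arntl, stood at 9.28, 10.34, 10.14 and 9.85 in the Hsp70 libraries, at 9.70, 10.22, 9.99 and 9.52 in high glucose, and at 10.08, 10.25 and 9.76 in normal glucose. The Hsp70 library of set 2 was the lowest of the 11, and it is also the library with the most Arntl. Nr1d2, the paralog REV-ERB beta, stood at 10.33, 10.54, 9.90 and 10.50 in the Hsp70 libraries, at 10.12, 10.51, 10.36 and 10.49 in high glucose, and at 10.07, 10.39 and 10.65 in normal glucose. Nr1d2 was low in the Hsp70 library of set 4 and the normal glucose library of set 3, the same libraries in which Clock was low. Dbp, the clock output factor, stood at 8.93, 9.57, 10.001 and 9.81 in the Hsp70 libraries, at 9.51, 9.60, 9.57 and 9.62 in high glucose, and at 9.94, 9.76 and 9.53 in normal glucose. Both its extremes were Hsp70 libraries, set 2 at the bottom and set 4 at the top, around 4 nearly equal high glucose libraries.

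**Figure D1:**
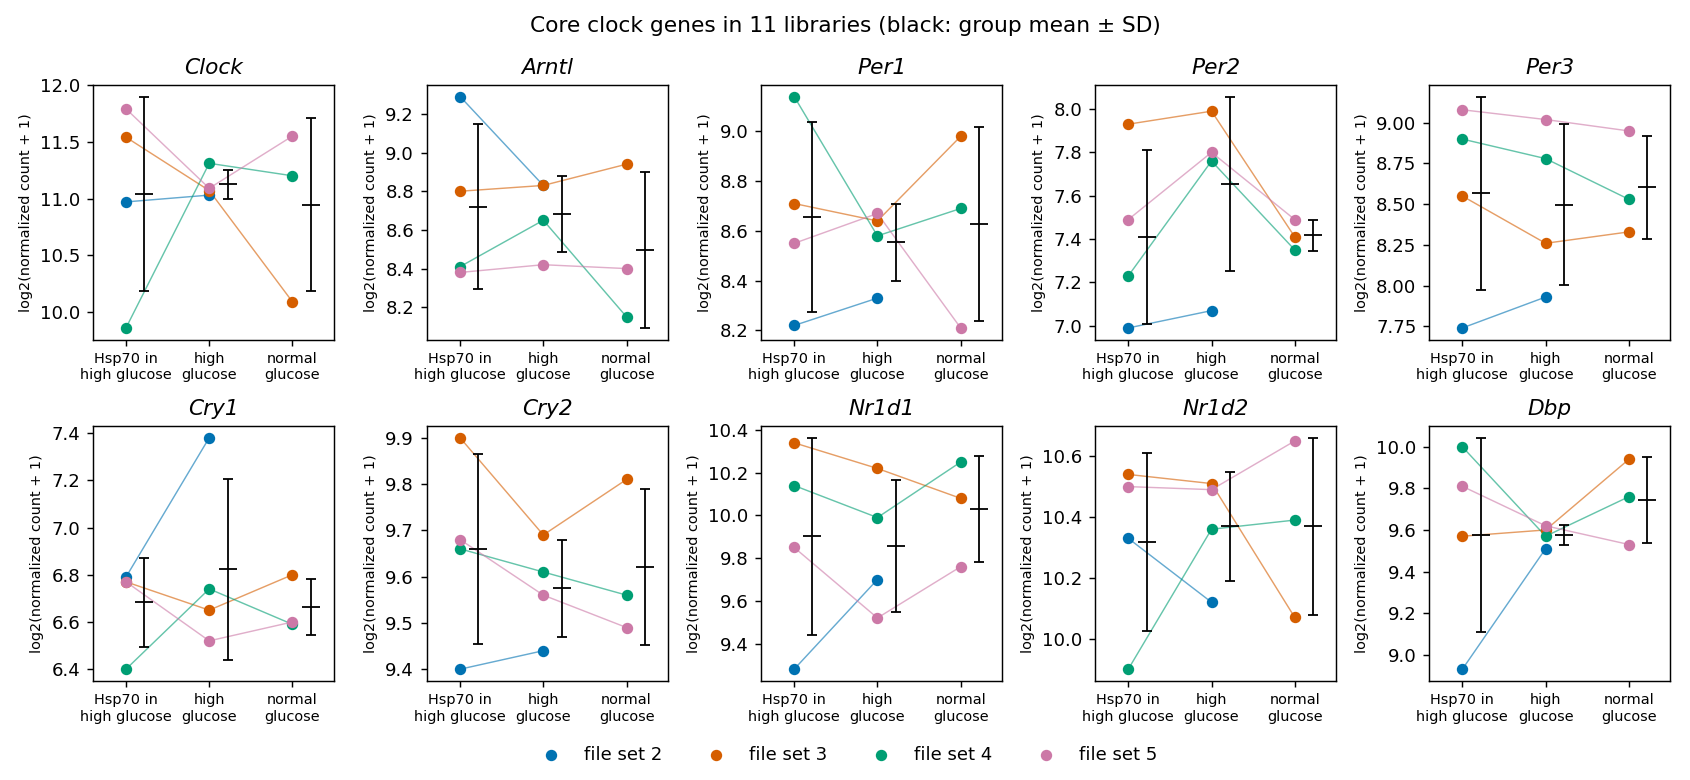
Log2(normalized count + 1) of the 10 clock genes in 11 libraries; each point is a library, colours mark the file set, lines join libraries of a set, and black marks give the group mean and SD (n = 4, 4 and 3). The groups overlap for every gene, and the Per3 points stack by set, from set 2 (7.74 and 7.93) up to set 5 (8.95 to 9.08).

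Set against exon length, the order of the members was led by the feedback receptors and Dbp. The median normalized count per kilobase of exon was 330 for Nr1d1, 259 for Dbp, 248 for Nr1d2, 159 for Clock and 124 for Cry2. Then came Per1 at 70.5, Arntl at 53.4, Per3 at 38.8, Cry1 at 31.7 and Per2 at 30.5. Neighbours in this order often changed places. Dbp was above Nr1d2 in 6 of 11 libraries, Arntl above Per3 in 6, and Cry1 above Per2 in 5. Nr1d2 was above Clock, and Cry2 above Per1, in all 11. Counting error at the median level ran from 0.0309 log2 units for Clock to 0.14 for Cry1. The exon lengths come from GENCODE M21, and the transcripts in use in these cells were not measured.

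The next comparison asked whether high glucose moved the clock genes. By limma, with Benjamini-Hochberg adjustment over the 18248 genes, 0 of the 10 members and 0% of all genes were called at an adjusted p of 0.05 for high against normal glucose. At an unadjusted p under 0.05 there were 0 of 10 members, against 1.01% of all genes (185). The members' median difference was -0.02 log2 units, with 5 above 0 and 5 below, and the median over all genes was -0.01. The differences ran from -0.17 for Nr1d1 to 0.24 for Per2, with standard errors of 0.151 (Cry2) to 0.432 (Clock). Per2 averaged 7.66 ± 0.403 in high glucose (SD, n = 4) and 7.42 ± 0.0698 in normal glucose (SD, n = 3), a difference with a 95% interval of -0.32 to 0.80 (limma adjusted p = 1). The groups overlapped for all 10 members, whereas 2.38% of all genes had groups that did not overlap. The smallest two-sided exact permutation p of a member was 0.171, for Dbp, and 0.0286 is the smallest that 4 libraries against 3 allow. The widest interval, that of Clock, ran from -0.77 to 1.13, so a change of 1 log2 unit in Clock lies within it.

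Adding Hsp70 to high glucose gave the same count. Of the members 0 of 10 were called, as were 0% of all genes, and at an unadjusted p under 0.05 there were 0 of 10 members against 0.745% of all genes (136). The differences, Hsp70 minus high glucose, ran from -0.25 (SE 0.24) for Per2 to 0.10 (SE 0.214) for Per1, and the members' median was 0.02, against 0.00 over all genes. Per2 averaged 7.41 ± 0.4 with Hsp70 and 7.66 ± 0.403 without (SD, n = 4 each). For Arntl the 95% interval was -0.46 to 0.54, for Nr1d1 -0.46 to 0.56, and for Clock -0.96 to 0.79. All 10 members overlapped between the groups, and 0.608% of all genes did not.

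For Hsp70 in high glucose against normal glucose 0 of 10 members and 0% of all genes were called, and at an unadjusted p under 0.05 again 0 of 10 members, against 0.975% of all genes (178). The differences ran from -0.17 (SE 0.219) for Dbp to 0.22 (SE 0.248) for Arntl, with a median of 0.01 over the members. Arntl averaged 8.72 ± 0.424 in the Hsp70 libraries (SD, n = 4) and 8.50 ± 0.402 in normal glucose (SD, n = 3). Groups that did not overlap numbered 0 of 10 here too, against 1.72% of all genes.

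**Figure D2:**
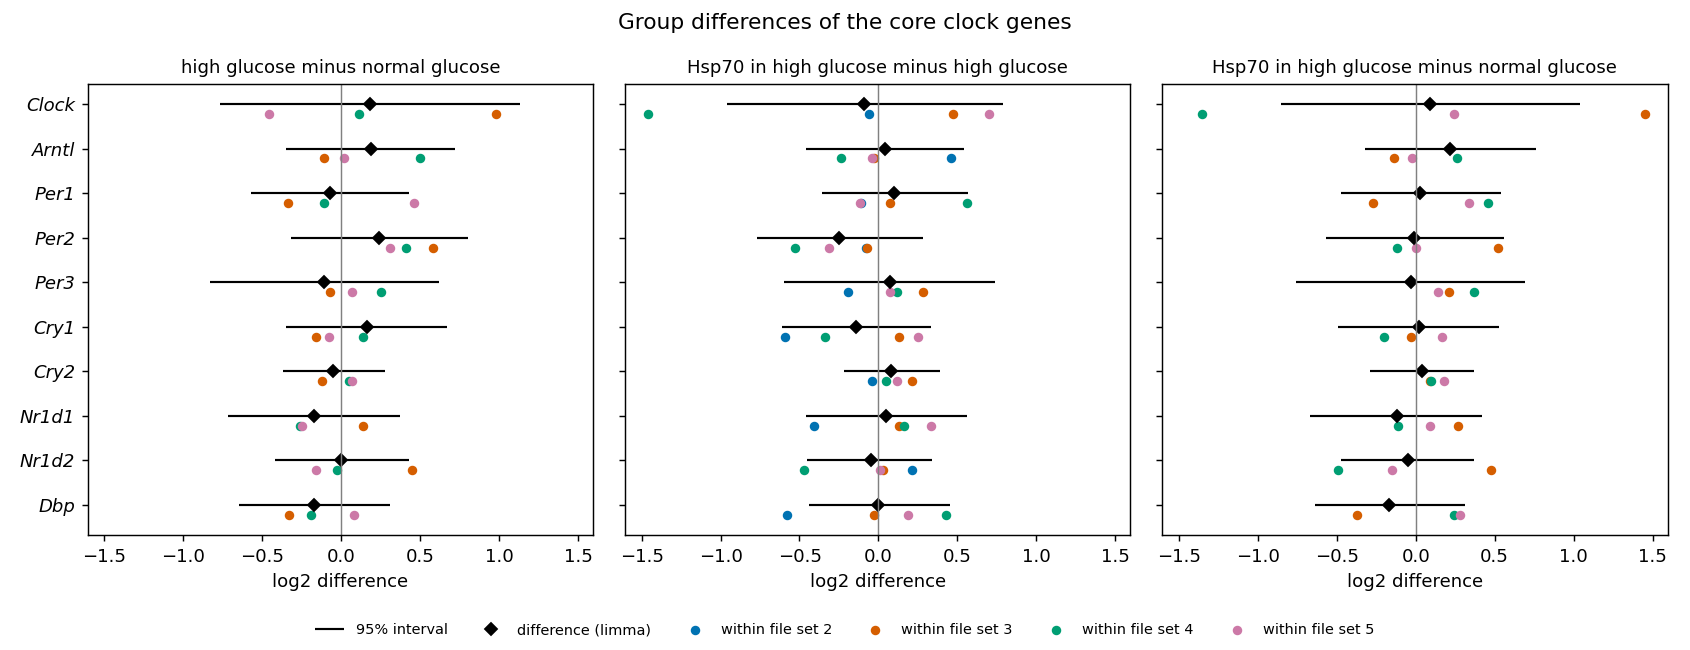
Log2 differences between groups for each clock gene, 1 panel per comparison; black diamonds and lines are the limma difference and its 95% interval, and coloured points are the differences within a file set. Every interval includes 0, and the Per2 points for high minus normal glucose (0.31 to 0.58) all lie above 0.

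Since sets 3, 4 and 5 hold a library of each group, the differences were also taken inside each set. Per2, with high glucose minus normal glucose at 0.58 in set 3, 0.41 in set 4 and 0.31 in set 5, was the member that kept its sign in all 3 sets of this comparison. It was 1 of 10 members, against 25.6% of all genes that kept their sign. With the set as a block the Per2 difference was 0.41 (SE 0.164), with an unadjusted limma p of 0.0344 and an adjusted p of 1. At that unadjusted threshold the block called 1 of 10 members and 3.49% of all genes, so the count of members carries little beyond the background. Per2 also kept its sign for Hsp70 minus high glucose, at -0.08, -0.07, -0.53 and -0.31 in sets 2 to 5 (limma adjusted p = 0.999 with the set block, under which 0 of 10 members and 1.67% of all genes had an unadjusted p under 0.05). It was again 1 of 10 members, against 8.31% of all genes. The Per2 differences in sets 2 and 3 are smaller than its counting error of 0.108, so their signs are not resolved. The 2 Per2 comparisons share the high glucose libraries and are not independent of each other. For Hsp70 minus normal glucose Per3 differed by 0.21, 0.37 and 0.14 and Cry2 by 0.09, 0.10 and 0.18 in sets 3, 4 and 5. These were 2 of 10 members with the same sign in every set, against 17.5% of all genes. With the set block 0 of 10 members had an unadjusted p under 0.05 in this comparison, against 3.22% of all genes. Clock, by contrast, changed sign, with Hsp70 minus normal glucose at 1.45 in set 3, -1.35 in set 4 and 0.24 in set 5.

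Across the sets the members varied much more. A median of 59.3% of a member's sum of squares lay between the 4 sets and 5.41% between the 3 groups, against 49.8% and 7.33% over all genes tested, and the sets took the larger share for 10 of 10 members, against 88.7% of all genes. Per3 was the member called by limma's moderated F test for sets with the group in the model (F = 22.6, adjusted p = 0.00485). Its set means were 7.83, 8.38, 8.74 and 9.02 in sets 2, 3, 4 and 5, and 92.9% of its sum of squares lay between them. That is 1 of 10 members, against 11.9% of all genes (2165), a share near the background. At an unadjusted p under 0.05 the members were Arntl, Per2, Per3 and Nr1d1, 4 of 10 against 29.6% of all genes. Without the 3 libraries of set 3, 0 of 10 members were called and the adjusted p of Per3 was 0.105, where 2 of all genes were called. Without set 2 Per3 had an adjusted p of 0.0473.

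Set 2 stood at an end of the order for most members. Its mean was the highest of the 4 sets for Arntl (9.06) and Cry1 (7.09) and the lowest for Per1 (8.27), Per2 (7.03), Per3 (7.83), Cry2 (9.42), Nr1d1 (9.49) and Dbp (9.22). It was highest for 2 of 10 members, against 25.7% of all genes, and lowest for 6, against 30.6%, which made 8 with set 2 at an end, against 56.2%. The Hsp70 library of set 2 was the highest of the 11 for Arntl and the lowest for Per2, Per3, Cry2, Nr1d1 and Dbp, 6 of 10 members, against 32.4% of all genes. The high glucose library of set 2, taken alone, was still above the means of sets 3, 4 and 5 for Cry1 (7.38) and below them for Per1 (8.33), Per2 (7.07), Per3 (7.93), Cry2 (9.44), Nr1d1 (9.70) and Dbp (9.51), and its Arntl, 8.83, was just under the set 3 mean of 8.86. Set 2 holds no normal glucose library. Its fibroblast marker sum, 17.17 to 17.20, was the lowest of the 4 sets (17.36 to 18.48 in the others), and its endothelial sum, 7.95 to 8.69, overlapped that of set 5 (7.81 to 8.13). Its macrophage sum, 9.23 to 9.47, and smooth muscle sum, 11.66 to 11.69, were above those of sets 4 and 5 (8.47 to 9.12 and 10.72 to 11.43). The share of genes listed at 0 was 25.9% in its Hsp70 and 25.2% in its high glucose library, against 21.2 to 22.9% in set 3 and 11.8% in sets 4 and 5. The part of cell mixture or of genes at 0 in the clock values was not tested.

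**Figure D3:**
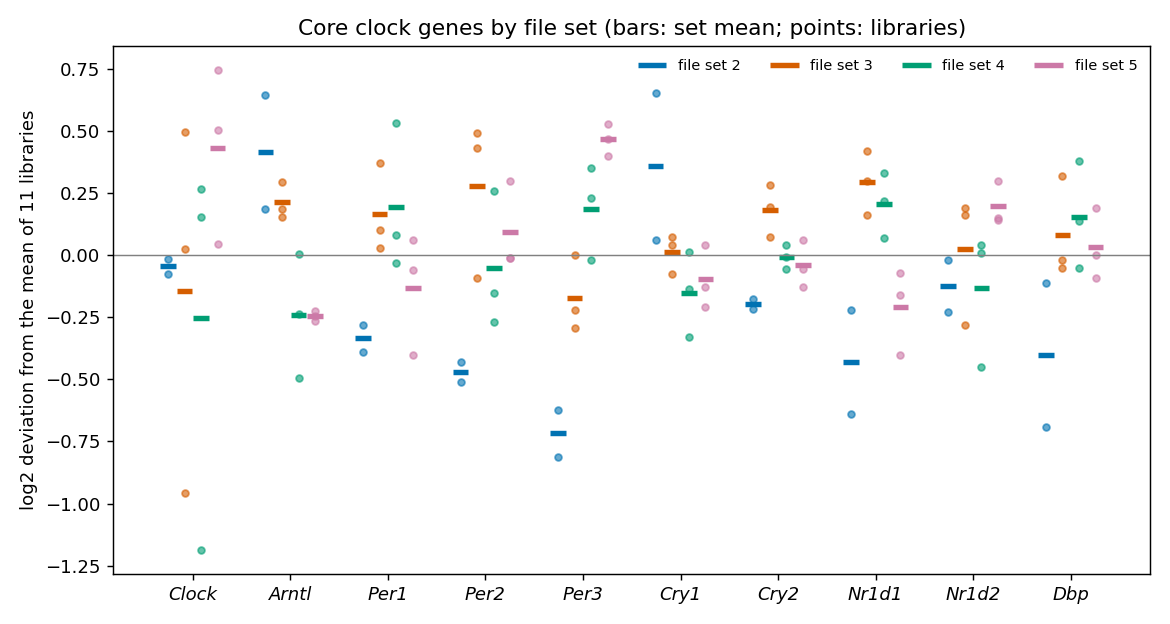
Deviation of each library (points) and of each file set's mean (bars) from a gene's mean over 11 libraries, in log2 units. The set 2 bar is highest for Arntl and Cry1 and lowest for Per1, Per2, Per3, Cry2, Nr1d1 and Dbp, and the Per3 bars climb from set 2 to set 5.

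The loop places Arntl opposite to Nr1d1, Dbp and the Per genes, and the libraries were compared on that axis. For each library the log2 difference between a target and Arntl was taken. Nr1d1 minus Arntl was 0.00 in the Hsp70 library of set 2 and 0.87 to 2.10 in the other 10 libraries. Dbp minus Arntl was -0.35 in that library and 0.68 to 1.61 in the others. Per3 minus Arntl was -1.55 there, and -0.90 to 0.71 elsewhere. The high glucose library of set 2 came next on all 3 differences, at 0.87, 0.68 and -0.90, and the library at the other end for Nr1d1 and Dbp was the normal glucose library of set 4, at 2.10 and 1.61. All 3 differences subtract the same Arntl value, so they are not independent readings. The Hsp70 library of set 2 has the most Arntl and the least Nr1d1, Dbp and Per3, which fixes its place.

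Over 14 pairs of members tested across the 11 libraries, 2 passed an adjusted permutation p of 0.05. Arntl and Per3 ran opposite, with Pearson's r = -0.80 (permutation p = 0.00337, adjusted 0.0236) and Spearman's rho = -0.75 (adjusted p = 0.0782). Without the 2 libraries farthest from the Arntl median r was -0.89. Inside the sets, on deviations from the set mean, r was 0.05, so the opposition of Arntl and Per3 ran between sets. The adjusted permutation p was 0.0775 without set 3 (r = -0.79, 8 libraries), 0.206 without set 2 (r = -0.63), and 0.208 without the Hsp70 library of set 2 alone (r = -0.67). It was also past 0.05 without the Hsp70 library of set 4 (0.0817), the Hsp70 library of set 5 (0.0549), the high glucose library of set 5 (0.0546) or the normal glucose library of set 5 (0.058). For both genes the libraries of set 3 lay inside the range of the others. Of the 18247 other genes, 105 had a lower r with Arntl than Per3 had.

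Dbp and Per1, both direct targets of CLOCK and BMAL1, ran together, with r = 0.79 (permutation p = 0.00268, adjusted 0.0236) and rho = 0.75 (adjusted p = 0.0782). Inside the sets r was 0.70 (exact permutation p = 0.0162, adjusted 0.0756). Without the 2 libraries farthest from the Dbp median r was 0.71 (adjusted permutation p = 0.249), and without set 3 it was 0.78 (adjusted permutation p = 0.0775). The call was also lost without the Hsp70 library of set 4 (r = 0.74, adjusted permutation p = 0.0817), the high glucose library of set 5 (0.80, 0.0546) or the normal glucose library of set 3 (0.76, 0.0644). Among all other genes, 203 had a higher r with Dbp than Per1 had.

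Arntl and Nr1d1 had r = -0.32 over the pooled libraries (rho = -0.21, adjusted permutation p = 0.592 for r). It depended on the libraries included, and r was -0.74 without set 3 (rho = -0.69, adjusted permutation p = 0.0775), 0.33 without set 2, 0.16 without the Hsp70 library of set 2 and 0.47 without the 2 libraries farthest from the Arntl median. In set 2 the Hsp70 library had the higher Arntl and the lower Nr1d1, and in sets 3, 4 and 5 the 3 libraries stood in exactly reverse order for the 2 genes. In set 3 normal glucose had the most Arntl and the least Nr1d1, in set 4 it had the least Arntl and the most Nr1d1, and in set 5 high glucose had the most Arntl and the least Nr1d1. On deviations from the set mean r was -0.81 (exact permutation p = 0.00463 within sets, adjusted 0.0648 over the 14 pairs) and rho was -0.82 (adjusted p = 0.0972). The adjusted values miss 0.05, and 0.00231 is the smallest p that the 432 orders within sets allow. Of the members Nr1d1 alone had this fully reversed order, as did 19 of the 18248 genes tested (0.104%), a count made after the order was seen. In set 5 the 3 Arntl values span 8.38 to 8.42, less than their counting error of 0.072, and in set 3 the Hsp70 and high glucose values, 8.802 and 8.828, are also closer than that, so these parts of the Arntl order are not resolved at this depth. No treatment held the high Arntl place in every set.

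Arntl and Dbp had r = -0.61 pooled (adjusted permutation p = 0.144) and -0.50 within sets, and -0.14 without the 2 libraries farthest from the Arntl median. It was -0.86 without set 3 (adjusted permutation p = 0.0775), -0.20 without the Hsp70 library of set 2, and -0.81 without the normal glucose library of set 3, where it passed the threshold (adjusted permutation p = 0.0417). Dbp and Nr1d1 had r = 0.66 pooled (adjusted permutation p = 0.121) and 0.43 within sets. Their r was 0.81 without set 3 (adjusted permutation p = 0.0775), 0.31 without the Hsp70 library of set 2, and 0.75 without the Hsp70 library of set 3, where it passed the threshold (adjusted permutation p = 0.0458). Dbp and Nr1d2 had r = -0.36 pooled (adjusted permutation p = 0.576) and -0.82 within sets (exact permutation p = 0.0162, adjusted 0.0756). Arntl with Per1, Per2 and Cry2 lay between -0.25 and -0.02 pooled. These tests treat the libraries as exchangeable, and the sets put that in doubt for the pooled values.

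**Figure D4:**
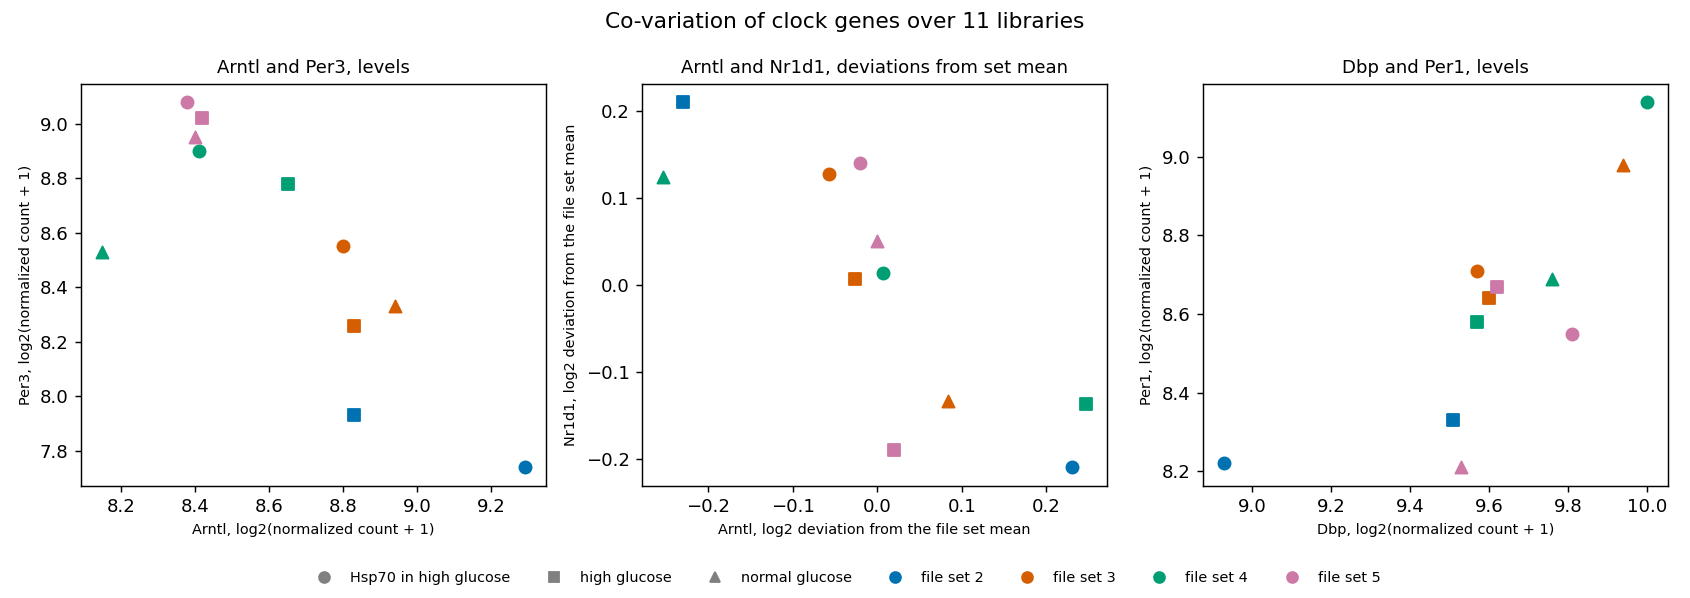
Arntl against Per3 levels (left), deviations of Arntl and Nr1d1 from their file set mean (middle), and Dbp against Per1 levels (right), in log2 units; each point is a library, with shape for the group and colour for the set. Per3 is lower in the libraries with more Arntl (r = -0.80), and within each colour the middle panel runs downward (r = -0.81).

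The genes most like 3 of the members over the 11 libraries were looked up among genes above the median mean level (7.93), as a description. For Arntl the highest r were those of Mras (0.929), Sbds (0.920) and Armt1 (0.905), and the lowest those of Zfp575 (-0.912) and Dnm1 (-0.888). Nr1d1 was most like Lman2l (0.947), B4galt2 (0.936) and Col4a1 (0.929), and least like Nap1l1 (-0.955), Wdr43 (-0.938) and Timp3 (-0.934). Dbp was most like Acat2 (0.967), Aldh1l1 (0.962) and Crocc (0.941), and least like Antxr2 (-0.963), Zbtb18 (-0.947) and Iars (-0.935). All of them exceed in size the r of -0.80 that was the strongest among the 14 pairs of members. The points share their libraries and sets.

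3 members have exons that overlap a measured gene on the opposite strand, and which strand was counted is not given in the sources used here. Dbp, on chromosome 7 at 45705088 to 45710203 (mm10), shares 737 bases, 45709467 to 45710203, with Sphk2, a sphingosine kinase. Over the 11 libraries Dbp and Sphk2 had r = 0.89 (permutation p = 0.00048, adjusted 0.00144 over 3 neighbours) and rho = 0.73, and within sets r = 0.92 (exact permutation p = 0.0139, adjusted 0.0417). Without the 2 libraries farthest from the median r was 0.82. Only 15 of all other genes tested had a higher r with Dbp, and Dbp minus Sphk2 stayed between -0.17 and 0.24 log2 units. Whether reads of the shared bases were counted for both genes cannot be told apart from a common change, so the Dbp values are uncertain to that extent. Nr1d1 shares 1075 bases at its end, chr11:98767932-98769006, with Thra, a thyroid hormone receptor gene that was the more abundant at 11.90 to 12.89. Their r was -0.22 (permutation p = 0.516, rho = -0.45), and -0.47 without the 2 libraries farthest from the median. Cry2 overlaps the non-coding D930015M05Rik (6.79 to 7.31) with r = 0.65 (adjusted permutation p = 0.0454, rho = 0.58), and 0.37 without the 2 farthest libraries.

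Clock moved with the gene length slope of the libraries. Over 12661 genes of mean log2 level 5 or more, a library's deviations were fitted against log2 exon length, and the slope ran from -0.133 in the Hsp70 library of set 4 and -0.121 in the normal glucose library of set 3 to 0.117 in the normal glucose library of set 5 and 0.141 in the Hsp70 library of set 5. The first 2 are the libraries with the least Clock. Clock has the longest exons of the 10 members, 13727 bases. Its level and the slope had r = 0.90 (permutation p = 0.00043, adjusted 0.0043 over the 10 members) and rho = 0.91, with r = 0.83 without the 2 libraries farthest from the median slope. Within sets r was 0.99 (exact permutation p = 0.00231, the smallest possible, adjusted 0.0231). Nr1d2 had r = 0.80 (adjusted permutation p = 0.0157, rho = 0.67 with adjusted p = 0.108), and 0.75 without the 2 farthest libraries. Within sets its r was 0.84 (exact permutation p = 0.0579, adjusted 0.193). The other 8 members lay between -0.65 (Per1, adjusted permutation p = 0.0965) and 0.42 (Per3). Nr1d2 has 5409 bases of exon, fewer than Per3 (9608) or Per1 (5631). Arntl (7523 bases), Cry2 (6320) and Per2 (5856) are also longer, with r of -0.36, -0.26 and 0.22. How many of all genes have such an r with the slope was not counted. When each library was corrected for its slope, the SD of Clock was 0.438, against 0.591 as deposited, and that of Nr1d2 was 0.179, against 0.232. The SD of Per3 fell to 0.412 from 0.449. It rose for Arntl (0.371, against 0.327), Per1 (0.334, against 0.289) and Cry2 (0.18, against 0.152). For Per2, Cry1, Nr1d1 and Dbp it moved little. The corrected difference of Clock was -0.08 (SE 0.295) for Hsp70 minus high glucose and 0.17 (SE 0.318) for high minus normal glucose.

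**Figure D5:**
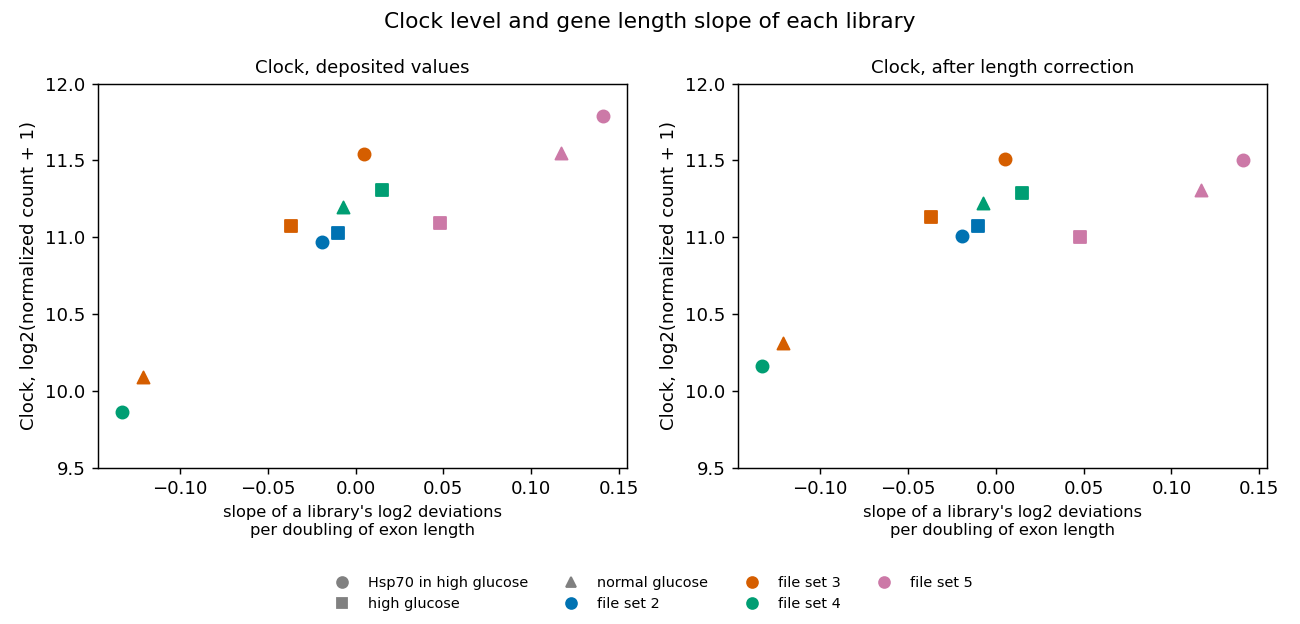
Clock level, log2(normalized count + 1), against the slope of each library's log2 deviations per doubling of exon length, before (left) and after (right) correction for that slope; each point is a library. The Hsp70 library of set 4 and the normal glucose library of set 3 sit at the low end of both axes on the left (slopes -0.133 and -0.121), and remain the lowest after correction, at 10.16 and 10.31.

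20 further genes of the clock and its inputs were set beside the members, and all 20 passed the filter. In the 3 comparisons 0 of 20 were called, against 0% of all genes. For high minus normal glucose 1 of 20 had an unadjusted p under 0.05, against 1.01% of all genes. That gene was Bhlhe40 (DEC1), an E-box repressor of CLOCK and BMAL1. It stood at 9.90, 10.23, 10.33 and 9.94 in the Hsp70 libraries, at 10.11, 10.21, 9.76 and 10.27 in high glucose, and at 10.53, 10.66 and 10.69 in normal glucose. All 3 normal glucose libraries were above all 8 others, 1 of 20 genes without overlap, against 2.38% of all genes for high against normal glucose and 1.72% for Hsp70 against normal glucose. High glucose minus normal glucose was -0.54 (SE 0.164, limma unadjusted p = 0.00645, adjusted p = 1, exact permutation p = 0.0286), and -0.33, -0.90 and -0.42 within sets 3, 4 and 5. Hsp70 minus normal glucose, which shares the normal glucose libraries, was -0.53 (SE 0.164, limma unadjusted p = 0.00745, adjusted p = 1, exact permutation p = 0.0571), and Hsp70 minus high glucose was 0.01 (SE 0.152). Of its sum of squares 67.2% lay between the groups and 15.1% between the sets, whereas the sets took the larger share for the 10 core members.

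The other genes of smallest p were not called in any comparison. For high minus normal glucose Hlf, a PAR bZIP relative of Dbp, differed by 0.47 (SE 0.389), Bhlhe41 (DEC2) by -0.35 (SE 0.325) and Btrc, which marks PER proteins for degradation, by 0.05 (SE 0.127). For Hsp70 minus high glucose Noct (Nocturnin) differed by -0.26 (SE 0.179), Npas2, a CLOCK paralog, by 0.69 (SE 0.493) and Csnk1d, the kinase of PER proteins, by 0.12 (SE 0.117). Npas2 was higher with Hsp70 in 4 of 4 sets, by 0.99, 0.26, 1.07 and 0.47, at counts of 11.5 to 49.2. Csnk1d and Tef also kept their sign in every set, as did 8.31% of all genes. The Npas2 counts lie below those of Cry1, where counting error was already 0.14 log2 units, so its smaller differences are weakly resolved. The Csnk1d groups did not overlap (exact permutation p = 0.0286, limma unadjusted p = 0.305), 1 of 20 genes against 0.608% of all. Its lowest Hsp70 value, 11.300, and its highest high glucose value, 11.272, are closer than the counting error of 0.0309 that Clock has at a like count. The separation of the Csnk1d groups is therefore not resolved at this depth. For Hsp70 minus normal glucose Hlf differed by 0.50 (SE 0.389), Bhlhe41 by -0.37 (SE 0.325) and Noct by -0.22 (SE 0.193). All of these had a limma adjusted p of 1.

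Between the sets 5 of 20 were called by limma, against 11.9% of all genes. Rorb and Npas2 had their highest mean in set 3, at 9.43 and 5.48, against 8.21 to 8.72 and 4.11 to 4.17 in the other sets (adjusted p = 0.00484 and 0.0375). Set 3 is also the set with the highest endothelial, macrophage, fibroblast (18.13 to 18.48, against at most 17.88) and Schwann (11.66 to 12.82, against at most 11.28) marker sums, and the part of those cells in the 2 genes was not tested. Arntl2, the BMAL1 paralog, had set means of 7.65, 8.09, 8.39 and 8.65 (adjusted p = 0.0209), the order of Per3. Wee1, a cell cycle kinase whose gene carries E-boxes in mouse, had 7.61, 6.83, 7.26 and 7.53 (adjusted p = 0.0434).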

How the data were processed

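Per the labels, total RNA was harvested with Trizol and sequenced after stranded SMARTer library preparation. The authors deposited log2 values, recognized from their range and steps as log2(normalized count + 1), with 1 file for each library. TopHat, edgeR and mm10 are listed in the submitters' processing notes. The normalization, the annotation and the counted strand were not given in the sources used here. Each file held 23282 rows. For a repeated symbol only the row of highest mean stayed (44 rows dropped), and 22197 symbols (95.5%) matched GENCODE M21, which gave positions and exon lengths. Depth in reads is not given, so counting errors treat normalized counts as reads.

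A gene needed a normalized count of 1 or more in 3 or more libraries to enter the test, made with limma 3.58.1 in R 4.3.3 (3 group means in 1 model, trended prior, robust variance, Benjamini-Hochberg at 0.05). Sets were tested with limma's F test beside the group. Correlations over libraries used 100000 permutations (scipy 1.17.1, Python 3.11.15), and within-set ones all 432 orders. Fits were tested on simulated data. High and normal glucose libraries of the same file set deviated together over genes (r = 0.594, 0.302 and 0.285 in sets 3, 4 and 5). The members and the lists were chosen with earlier results of these data known. The length slope, the overlapping neighbours, the reversed order and the tests without set 2 were added after seeing the data. Of the further clock genes, those called are named, and otherwise the 4 of smallest unadjusted p in each comparison. The genes most like Arntl, Nr1d1 and Dbp are the 3 of highest and the 3 of lowest r, without predicted genes. Some genes that these rules select are not reported here. Alternatives were the set block, a block by the number in the titles, other filters, scalings, pseudocount and variance models, and leaving out libraries or sets.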

Additional observations from a re-analysis of the deposited data

Results flagged for a closer look

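Within groups of 4 libraries 1 value of a clock gene stood apart from the other 3. Cry1 was at 6.40 in the Hsp70 library of set 4, while the other Hsp70 libraries lay between 6.77 and 6.79. The gap took 0.954 of the group's range, above Dixon's critical value of 0.829. 20 groups of libraries were examined, and chance flags about 1 in 20. The counting error of Cry1 at its median level is 0.14 log2 units. The same library is the one with the least Clock and Nr1d2 and the most Per1 and Dbp.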

How the results depend on the processing

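In the 3 group comparisons 0 of 10 members were called under every alternative run. The count over all genes was 0 under each of them except for 3 genes in either Hsp70 comparison without the Hsp70 library of set 3 (range 0 to 3 with each library left out). By the F test for sets 1 member was called, 0 without set 3 and 2 (Per3 and Nr1d1) with quantile normalization, and 1 to 3 with each library left out. The 2165 genes called by set became 2 without set 3, 1387 without set 2, 1375 with no filter, 1396 with no trended or robust variance, and 613 to 5195 with each library left out. The fewest were without the high glucose library of set 3 and the most without the Hsp70 library of set 4. The count of pairs of members past the threshold, 2, was 0 on deviations from the set mean, 0 without set 3, 0 after length correction, 1 without the 2 farthest libraries, and 0 to 3 with each library left out, where Dbp with Nr1d1 (without the Hsp70 library of set 3) and Arntl with Dbp (without the normal glucose library of set 3) entered. The cause was not tested.

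A block by the number in the sample titles, which does not follow the file sets for normal glucose, called 0 members and 0 genes. With this replicate block 2 differences changed sign, Nr1d2 to -0.05 for high minus normal glucose and Clock to -0.03 for Hsp70 minus normal glucose. Deviations of libraries with the same title number had r of -0.224, -0.357 and 0.137 between high and normal glucose, and -0.24, -0.26 and -0.127 between Hsp70 and normal glucose, so the titles do not pair them. Between Hsp70 and high glucose, where titles and sets coincide, r was 0.422, 0.691, 0.0586 and 0.262.

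No member difference was called, so a change of sign here moves a value around 0. With the set block, high minus normal glucose turned to 0.04 for Per1, 0.13 for Per3 and 0.02 for Cry2, and Hsp70 minus normal glucose to 0.16 for Per2, 0.20 for Per3, -0.09 for Cry1 and 0.01 for Nr1d1. In sets 3, 4 and 5 alone, high minus normal glucose turned to 0.00 for Per1, 0.08 for Per3 and -0.03 for Cry1, Hsp70 minus high glucose to -0.10 for Arntl and 0.01 for Cry1, and Hsp70 minus normal glucose to 0.13 for Per2, 0.24 for Per3, -0.02 for Cry1, 0.08 for Nr1d1 and 0.05 for Dbp. Without set 3, high minus normal glucose turned to -0.23 for Clock, 0.08 for Per1, 0.01 for Cry2 and -0.19 for Nr1d2, and Hsp70 minus normal glucose to -0.51 for Clock. Per2, at -0.01 for Hsp70 minus normal glucose, turned to 0.02 with quantile normalization, 0.01 with median centring and 0.00 after length correction. Correlations that changed sign on deviations from the set mean were Arntl with Per2 (0.14), Per3 (0.05), Cry1 (-0.38), Cry2 (0.01) and Nr1d2 (0.00), and Dbp with Per2 (-0.56). Without the 2 farthest libraries they were Arntl with Per1 (0.10), Per2 (0.11), Cry2 (0.40) and Nr1d1 (0.47), and Dbp with Per2 (-0.22). After length correction they were Arntl with Per1 (0.06) and Cry2 (0.26). Without set 2 they were Arntl with Per1 (0.23), Per2 (0.52), Cry2 (0.74) and Nr1d1 (0.33), and Dbp with Per2 (-0.76) and Per3 (-0.03), and Dbp with Nr1d2 passed the threshold (r = -0.86, adjusted permutation p = 0.0387).

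With each library left out in turn, high minus normal glucose ran over both signs for Clock -0.25 to 0.48, Cry1 -0.03 to 0.26, Cry2 -0.11 to 0.05, Nr1d2 -0.15 to 0.14, Per1 -0.28 to 0.11 and Per3 -0.28 to 0.08. Hsp70 minus high glucose did so for Arntl -0.15 to 0.15, Clock -0.34 to 0.31, Cry1 -0.24 to 0.05, Dbp -0.14 to 0.22, Nr1d1 -0.10 to 0.26, Nr1d2 -0.14 to 0.09, Per1 -0.06 to 0.25 and Per3 -0.12 to 0.35. Hsp70 minus normal glucose did so for Clock -0.34 to 0.49, Cry1 -0.02 to 0.11, Cry2 -0.04 to 0.13, Dbp -0.31 to 0.05, Nr1d1 -0.27 to 0.08, Nr1d2 -0.20 to 0.09, Per1 -0.18 to 0.21, Per2 -0.18 to 0.13 and Per3 -0.21 to 0.24. The r of Arntl with Cry2 -0.17 to 0.44, Arntl with Nr1d1 -0.46 to 0.16, Arntl with Per1 -0.43 to 0.06, Arntl with Per2 -0.32 to 0.22 and Dbp with Per2 -0.39 to 0.38 also did.

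With 3 or 4 libraries a group, standard errors of 0.14 to 0.432 log2 units limit the members, and Cry1, at about 106 normalized counts, has the largest counting error. The libraries of set 2 have no normal glucose partner, so that set enters within-set values for 1 comparison only.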

Other observations

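2 other genes of the clock list followed the length slope of the libraries as Clock did, and were looked at after their values were seen. Rora, an activator at ROR elements, had r = 0.86 with the slope (permutation p = 0.00095, unadjusted, rho = 0.78), and 0.98 within sets. Fbxl21, a ligase subunit for cryptochromes, had r = 0.87 (permutation p = 0.00035, unadjusted, rho = 0.92), and 0.89 within sets. Without the 2 libraries farthest from the median slope r was 0.73 for Rora and 0.82 for Fbxl21. The rest of the list was not tested against the slope. Among these genes Btrc was nearly level between the Hsp70 libraries of sets 4 and 5 (10.04 and 10.01), whose slopes were the lowest and the highest (-0.133 and 0.141). Btrc has longer exons than Clock, and Fbxl21 has much shorter ones.

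Nfil3, a repressor at D-boxes whose gene is itself repressed by REV-ERBs, had r = 0.73 with Arntl over the 11 libraries, with 277 of 18247 genes higher, and r = 0.18 with Nr1d1. Wee1 had r = -0.81 with Nr1d1, with 201 genes lower. Both are descriptions over libraries that share sets, and no test was made of them. The Nfil3 window holds the ROR element core beginning 12 bases before the start, and the Ciart window, of another E-box target, holds CACGTG at 3 places.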
